A study of Mus musculus with 6 samples.

Results

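Genomic imprinting is the expression of a gene from only the copy inherited from the mother or only the copy inherited from the father. The imprinted genes described here are 43 genes written as a list from textbook knowledge, and they were matched by symbol to probe sets that the platform annotation gives to 1 gene alone. Of the 43 genes, 40 had such a probe set, among 18193 genes measured in this way, and 107 probe sets belonged to the 40 genes, among 45037 in all. H19, Zrsr1 and Peg13 had none and have no value here. H19 shares its probe set with Mir675 in the annotation, and 6 further probe sets are given to Snurf and Snrpn together, so these were not used.

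The study compared 3 arrays of dorsal telencephalon from cKO embryos with 3 from WT embryos at E14.5, a mid-gestation stage. The dorsal telencephalon is the embryonic tissue that forms the cerebral cortex. The cKO embryos carry a conditional knockout of ESET, a histone H3 lysine 9 methyltransferase encoded by Setdb1, made with Emx2Cre, which acts in dorsal forebrain progenitors. The WT embryos are labelled wild type, and whether they carried Cre is not given in the sources used here. All 6 samples are labelled male and of C57BL\6 background, and the design text speaks of 3 embryos of each genotype. The readings given below for WT 3 go against its male label. Those for cKO 3 hold both high Xist and Y-linked signal, unlike the other cKO arrays. Each array held RNA of both parental copies mixed, so which copy a transcript came from was not measured.

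Most imprinted genes lie in clusters, where 1 stretch of DNA methylated in the egg or the sperm, the imprinting control region, sets which parental copies of the neighbouring genes are expressed. After fertilization that methylation is kept by proteins that include the zinc finger factor ZFP57, which binds the methylated letters TGCCGC, and its partner TRIM28, also called KAP1, which recruits ESET. Many imprinted genes act in fetal growth, in the placenta and in the developing brain.

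The start regions of 4 members are shown because they differ in these letters and because Nap1l5 had the lowest adjusted p of the imprinted genes. The sequences are from RefSeq on assembly GRCm38.p6 and run from 250 bases before to 50 bases after the annotated start of the gene, 5′ to 3′ on the strand of the gene. Capitals mark TGCCGC, or GCGGCA, which is the same 6 letters on the other strand. Nap1l5, Nnat and Plagl1 are expressed from the paternal copy, and each starts at or near a region methylated in the egg. Ndn is also paternally expressed but is controlled from a distance within the Snrpn cluster. The windows are chr6:58907077-58907376 on the minus strand for Nap1l5, chr2:157559828-157560127 on the plus strand for Nnat, chr10:13090582-13090881 on the plus strand for Plagl1 and chr7:62348027-62348326 on the plus strand for Ndn.
Nap1l5: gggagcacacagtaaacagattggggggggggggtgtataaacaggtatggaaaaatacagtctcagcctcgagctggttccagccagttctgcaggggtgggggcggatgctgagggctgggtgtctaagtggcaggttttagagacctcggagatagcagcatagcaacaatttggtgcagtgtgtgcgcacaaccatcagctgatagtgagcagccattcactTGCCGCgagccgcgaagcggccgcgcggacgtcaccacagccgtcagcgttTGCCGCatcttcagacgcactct
Nnat: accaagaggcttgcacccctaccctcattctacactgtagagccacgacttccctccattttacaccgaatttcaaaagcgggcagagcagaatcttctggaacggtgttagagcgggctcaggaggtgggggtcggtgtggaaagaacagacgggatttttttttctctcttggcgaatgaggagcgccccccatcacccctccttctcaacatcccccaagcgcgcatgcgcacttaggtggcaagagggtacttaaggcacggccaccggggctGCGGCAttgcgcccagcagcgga
Plagl1: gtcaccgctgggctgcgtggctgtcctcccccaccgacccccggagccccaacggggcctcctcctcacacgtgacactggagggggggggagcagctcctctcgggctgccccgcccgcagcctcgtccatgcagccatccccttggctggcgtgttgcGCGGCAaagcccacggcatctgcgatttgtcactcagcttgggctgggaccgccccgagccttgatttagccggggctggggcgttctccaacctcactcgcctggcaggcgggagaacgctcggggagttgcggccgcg
Ndn: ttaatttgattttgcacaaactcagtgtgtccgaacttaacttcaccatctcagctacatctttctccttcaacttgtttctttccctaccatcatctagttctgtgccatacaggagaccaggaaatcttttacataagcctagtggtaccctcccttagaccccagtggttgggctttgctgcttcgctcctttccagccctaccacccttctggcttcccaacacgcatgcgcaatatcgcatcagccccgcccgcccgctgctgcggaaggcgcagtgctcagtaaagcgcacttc

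The Nap1l5 window held the letters 2 times, beginning at -24 and at 28 counted from the start of the gene, the windows of Nnat and Plagl1 held them 1 time each, and that of Ndn did not hold them. Over all 32851 start regions in the table, 11.6% held the letters at least 1 time and 1.53% held them 2 or more times. Of the 53 start regions listed for 36 of the 43 imprinted genes, 13 (24.5%) held them and 4 (7.55%) held them 2 or more times, where some of these windows overlap. The letters hold a CpG, and the median number of CpG in a window was 15.0 for these start regions and 7.0 for all. Beside Nap1l5, the windows with 2 matches were a pair of overlapping windows of Mest and 1 of Calcr. A match describes these letters only, and binding or methylation was not measured.

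The targeted gene Setdb1 was lower in cKO, with intensities of 704, 696 and 500 in the 3 cKO arrays against 1162, 1185 and 1033 in the 3 WT arrays. The groups did not overlap, and the log2 fold change, taken as cKO minus WT on the scale of log2(intensity + 16), was -0.83 (SE 0.17). In limma's test over all 18193 genes it did not pass the threshold of 0.05 on the adjusted p (adjusted p = 0.137). Which part of the gene is deleted is not given in the sources used here. Of 10 marker genes of dorsal telencephalon 8 were measured, and their summed intensity was between 41143 and 49088 in cKO and between 42253 and 46414 in WT. Neurod6 was the largest part of this sum, at 17864, 22332 and 17967 in cKO and 18877, 18286 and 13756 in WT. The sum therefore says little of the dimmer markers. Of the 8, 4 were higher and 4 lower in cKO, and none passed the threshold. Without overlap 2 were lower, against 7.64% of all genes, and 1 was higher, against 7.90%. Emx2, the gene named in the Emx2Cre driver, was lower, at 674, 647 and 743 in cKO and 1197, 1129 and 1395 in WT. The Cre status of WT is not given, so effects of the driver allele and of the knockout on Emx2 cannot be told apart. The intermediate progenitor gene Eomes was lower, at 2783, 3192 and 3404 in cKO and 4689, 4707 and 5062 in WT. Neurog2 was higher, at 7209, 7346 and 7629 in cKO and 6641, 6870 and 6791 in WT. The arrays numbered 3 stood apart. WT 3, labelled male, read 17294 for Xist, against 59.0 and 42.3 on the other WT arrays. It read 22.2 for the Y-linked Eif2s3y, against 1927 and 1973 on the other WT arrays. For the Y-linked Kdm5d it read 10.2, against 934 and 915. These values go against the male label of WT 3. The array cKO 3 read 8811 for Xist, against 39.5 and 34.1 on the other cKO arrays. It read 961 for Eif2s3y, below the 2103 and 2186 of the other cKO arrays and above the WT 3 value. For Kdm5d it read 663, against 909 and 1028, so cKO 3 had both high Xist and Y-linked signal. Summed intensities of 10 erythroid markers were 74207 on cKO 3 and 11278 to 17253 on the other cKO arrays, and 69515 on WT 3 and 12549 to 16551 on the other WT arrays. The members that the results turn on are therefore given array by array. Without both arrays numbered 3 the sign of the fold change differed for Igf2, Dlk1, Kcnq1, Magel2, Copg2, Commd1, Nnat and Blcap, where the values without them ran between -0.22 for Kcnq1 and 0.08 for Nnat.

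No imprinted gene passed the threshold. Among the 40 genes limma called 0, where 0.627% of all genes passed, 0.385% higher and 0.242% lower in cKO. An unadjusted p under 0.05 was reached by 4 of the 40 genes, where 9.56% of all genes reached it. These were 2 genes higher in cKO, against 5.17% of all genes, and 2 lower, against 4.39%. In 6 of the 40 (15.0%) the cKO and WT arrays did not overlap, against 15.5% of all genes. The median log2 fold change of the 40 genes was 0.04, beside 0.01 for all genes, and 36 of the 40 were within 0.5 of zero. These shares lie near those of all genes. Over all probe sets the picture was alike. Of the 107 probe sets of the members 0 passed, against 0.275% of all probe sets (0.224% higher, 0.0511% lower). An unadjusted p under 0.05 was reached by 3 that were higher, against 4.57%, and by 4 that were lower, against 3.33%, of which 3 belong to Ndn. The groups did not overlap in 7 that were higher, against 7.47%, and in 7 that were lower, against 6.07%. The 4 members at an unadjusted p under 0.05 were Nap1l5 and Snrpn, both lower, and Cdkn1c and Ascl2, both higher.

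Nap1l5, which encodes a nucleosome assembly protein-like factor of the brain, was lower in cKO. Its single probe set read 308, 376 and 384 in cKO and 833, 999 and 706 in WT. Every cKO array lay below every WT array by a wide margin, and the nearest cKO and WT arrays were both numbered 3. The mean was 356 ± 41.7 in cKO and 846 ± 147 in WT (SD, n = 3 arrays each), so that the WT mean was 2.38 times the cKO mean. The log2 fold change was -1.21 (SE 0.17), with a limma adjusted p of 0.0504, just short of the threshold, and it was -1.38 without both arrays numbered 3 and -0.85 between these alone. Nap1l5 passed in 4 of 17 other settings, with adjusted p of 0.0153 at a pseudocount of 64, 0.0467 after quantile normalization, 0.00863 with dim probe sets left out and 0.00542 with the trend and robust options of limma. Over all settings its adjusted p ran from 0.00542 to 0.195.

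Cdkn1c, the maternally expressed inhibitor of cyclin-dependent kinases also called p57, was higher in cKO. It read 5598, 3918 and 7127 in cKO and 1620, 1671 and 3370 in WT. Every cKO array was above every WT array, and within each group the array numbered 3 was the highest. The means were 5548 ± 1605 in cKO and 2220 ± 996 in WT (SD, n = 3 each), with a log2 fold change of 1.36 (SE 0.35) that did not pass (limma adjusted p = 0.235). Without both arrays numbered 3 it was 1.50, and over all settings it ran from 1.16 to 1.70 with adjusted p from 0.0721 to 0.522. Markers of other cell types moved across these arrays too. The summed intensity of 13 markers of meninges and mesenchyme was 2541 on cKO 3 and 715 to 1004 on the other 5 arrays, and that of 10 muscle markers was 1159 on cKO 3 and 343 to 682 on the others. For 12 markers of endothelium and pericytes the sums were 2471 to 2646 in cKO and 3329 to 3736 in WT, and in 7 of the 12 genes cKO was lower without overlap, against 7.64% of all genes. Of 9 ventral telencephalon markers 3 were higher in cKO without overlap, against 7.90% of all genes. They were Gad1 at 0.48 (SE 0.15), Nkx2-1 at 1.01 (SE 0.34) and Lhx6 at 0.19 (SE 0.12). Nkx2-1 was near background, at 34.2, 20.7 and 63.2 in cKO and 6.19, 5.94 and 20.4 in WT. Its fold change depends on the 16 added to each intensity. Of the 9 markers, 7 were higher and 2 lower in cKO. The summed intensities overlapped, at 4094 to 4465 in cKO and 3263 to 4663 in WT. Among 10 markers of diencephalon and hypothalamus, 8 were higher and 2 lower in cKO. Lhx9 was at 0.96 (SE 0.15, limma adjusted p = 0.0620) and Lhx1 at -1.68 (SE 0.55), both without overlap. Lhx1 was dim, at 2.27, 15.9 and 58.5 in cKO and 63.3, 86.6 and 159 in WT. The sums of this list were 1056 to 1370 in cKO and 782 to 1149 in WT. None of these lists had a marker below an intensity of 16 on all arrays, but many markers were dim. The mean was below 100 for 10 of 13 markers of meninges and mesenchyme and 7 of 10 of muscle. It was below 100 for 3 of 9 ventral and 8 of 10 diencephalon and hypothalamus markers, and for 1 of 12 of endothelium and pericytes. The part of such cells in the value of Cdkn1c was not tested. In these samples of whole tissue, a change in the number of cells of a type and a change in the RNA of each cell cannot be told apart.

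**Figure D1:**
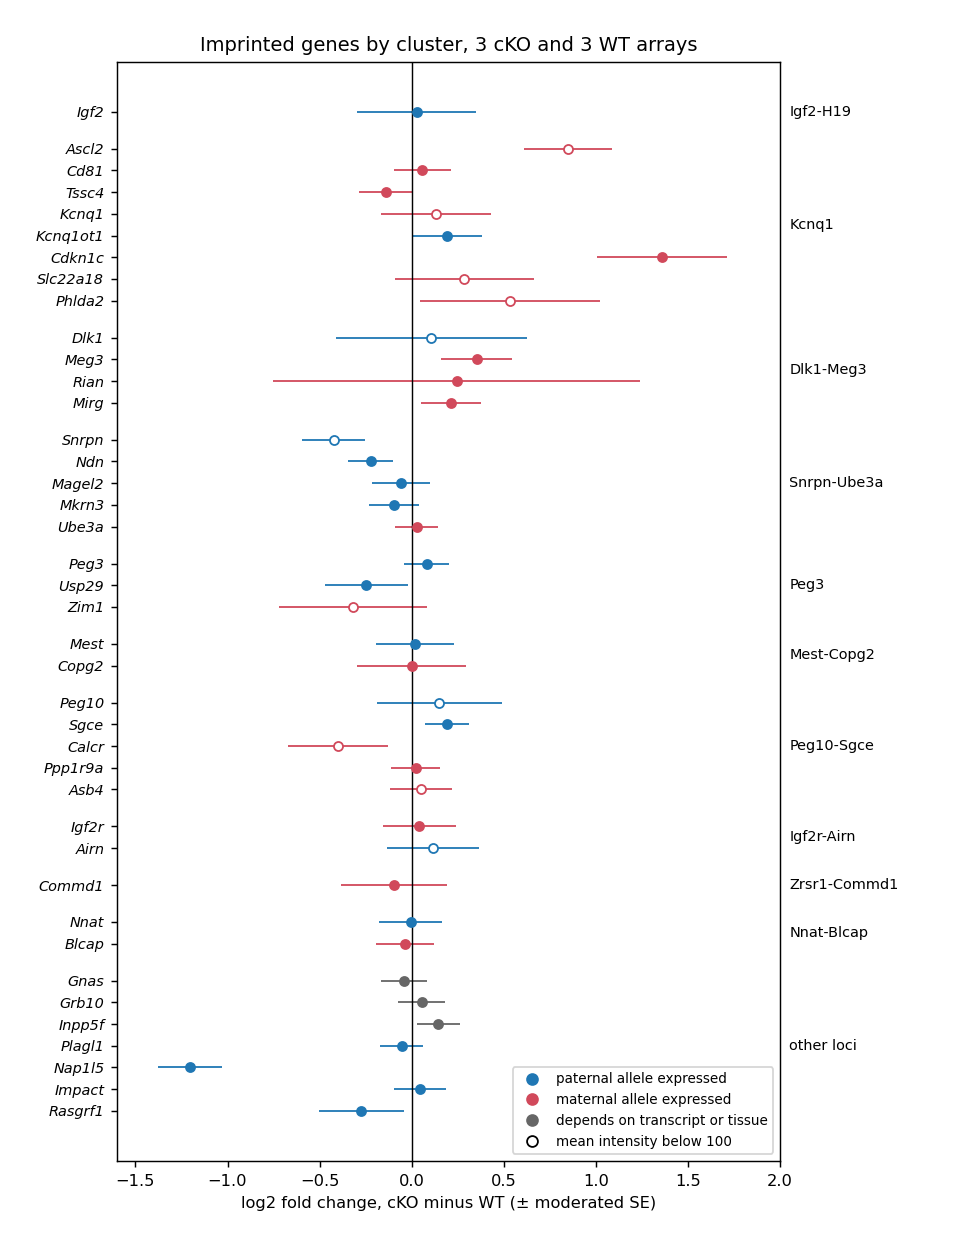
Log2 fold change, cKO minus WT, of the brightest probe set of each of 40 imprinted genes (points) with its moderated SE (bars), ordered by cluster and coloured by the parental copy that is expressed, with open circles for a mean intensity below 100. Nap1l5 at -1.21 and Cdkn1c at 1.36 are the farthest from zero, while 36 of 40 genes lie within 0.5 of it.

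The Kcnq1 cluster, on chromosome 7, holds genes expressed from the maternal copy under the control of the paternally expressed long noncoding RNA Kcnq1ot1. The 8 measured members had a median log2 fold change of 0.24, with 7 higher and 1 lower, where 4 of the 8 had a mean intensity below 100. Kcnq1ot1 itself read 829, 849 and 646 in cKO and 832, 628 and 578 in WT, and the groups overlapped. Its log2 fold change was 0.19 (SE 0.19, limma adjusted p = 0.861). Of its 4 probe sets with a mean above 100, 3 were higher in cKO, by up to 0.84 (SE 0.37), and 1 was lower, at -0.18 (SE 0.27), and in none of the 4 were the groups apart.

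Ascl2, a transcription factor of the placenta, was read near background. Its values were 23.1, 20.6 and 24.4 in cKO and 2.27, 1.39 and 15.0 in WT, with no overlap. The log2 fold change was 0.85 (SE 0.24, limma adjusted p = 0.279), a size set by the pseudocount of 16, and another probe set of the gene was at -0.07 (SE 0.30). Phlda2, a growth-restraining gene of the placenta, and the potassium channel gene Kcnq1 were below 16 in every array but cKO 3, at 54.8 and 33.6 there. The transporter gene Slc22a18 was between 15.8 and 73.0 on all arrays. Cd81, a tetraspanin gene, and Tssc4, both known as imprinted mainly in placenta, were at 0.06 (SE 0.16) and -0.14 (SE 0.15). Within this cluster, then, Cdkn1c was the single member with a mean above 100 whose groups did not overlap.

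**Figure D2:**
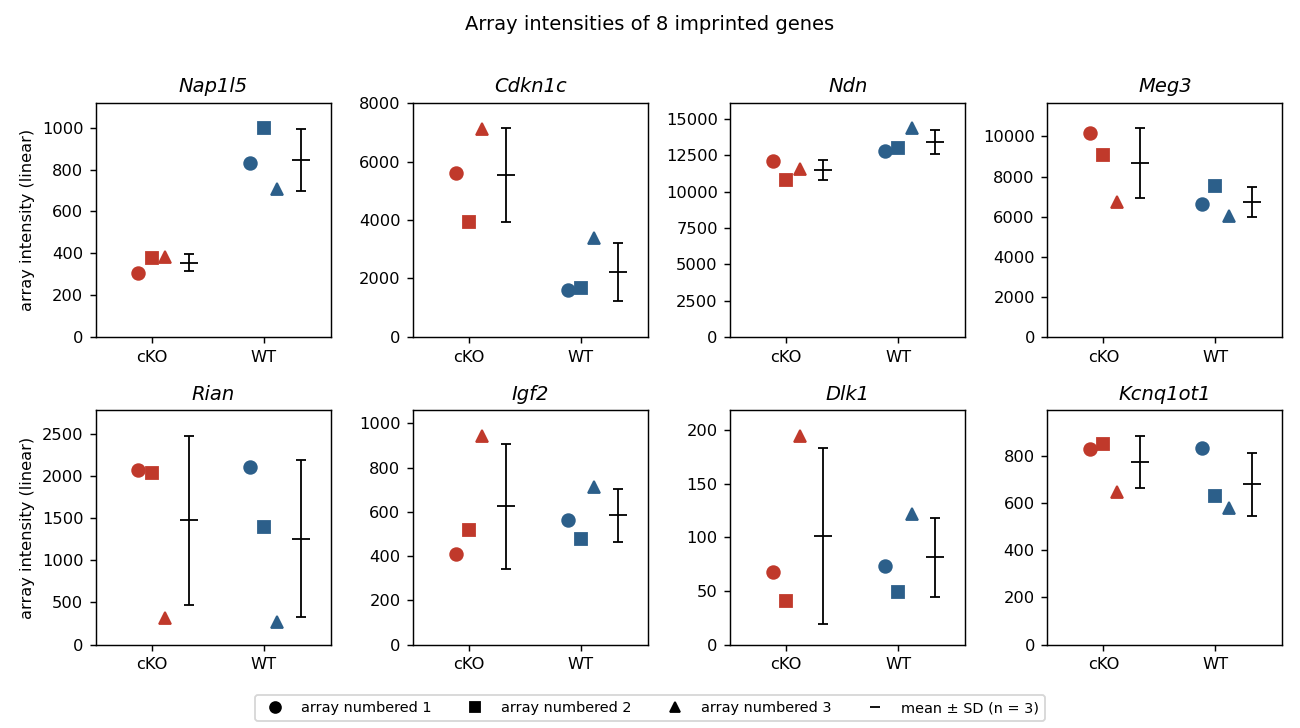
Intensities of 8 imprinted genes on each array (linear axis from 0), cKO left and WT right, with a symbol for each array number and the mean ± SD of 3 arrays. The groups do not overlap for Nap1l5, Cdkn1c and Ndn, and both arrays numbered 3 lie far below the others for Rian and above the others for Igf2 and Dlk1.

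The Snrpn cluster, on chromosome 7, is the mouse counterpart of the region of Prader-Willi and Angelman syndromes. The median of its 5 measured members was -0.10, with the 4 paternally expressed members below zero and the maternal member above it. The signs of Magel2 and of the maternal member, Ube3a, each changed in 2 of 17 other settings. Snrpn, which encodes a splicing protein, had 1 probe set of its own and read 82.8, 73.1 and 75.5 in cKO and 89.1, 139 and 103 in WT. This probe set was dim, with a mean of 93.8, and the 6 shared with Snurf were not used, so it may not stand for the gene. The groups did not overlap, but the log2 fold change of -0.42 (SE 0.17) did not pass (limma adjusted p = 0.511). Magel2, a regulator of protein sorting, was at -0.06 (SE 0.16), and Mkrn3, known for its part in the timing of puberty, at -0.10 (SE 0.13). Ube3a, the ubiquitin ligase gene of Angelman syndrome that is expressed from the maternal copy in neurons, read 4522, 4271 and 4417 in cKO and 4402, 4031 and 4540 in WT. These groups overlapped, and the log2 fold change was 0.03 (SE 0.12). Of the 5 Ube3a probe sets with a mean above 100, 4 were above zero, by up to 0.21, and 1 was at -0.03.

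Ndn, which encodes necdin, a protein that restrains proliferation and supports survival of neurons, was lower in cKO by a small amount on each of its bright probe sets. The brightest read 12112, 10766 and 11572 in cKO and 12826, 13021 and 14378 in WT. In all 5 of its probe sets with a mean above 100 every cKO array lay below every WT array. Of all probe sets, dim ones included, 6.07% were lower in cKO without overlap. Their log2 fold changes ran from -0.46 to -0.15. The probe set 1415923_at showed the largest of these differences, with 6880, 6813 and 7405 in cKO and 10541, 8795 and 9765 in WT. Its log2 fold change was -0.46 (SE 0.14) and did not pass over all probe sets (limma adjusted p = 0.449). The 5 probe sets read the same gene in the same RNA and are not independent. The gene table, which takes the brightest probe set, gave -0.22 (SE 0.12, limma adjusted p = 0.664), and -0.18 without both arrays numbered 3.

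The Dlk1-Meg3 cluster, on chromosome 12, holds the paternally expressed Dlk1, a Notch-like growth regulator, and a row of maternally expressed noncoding RNAs. Meg3 is a long noncoding RNA, Rian hosts small nucleolar RNAs and microRNAs, and Mirg hosts microRNAs. All 4 members were at values above zero, with a median log2 fold change of 0.23, and none passed. Meg3 read 10190, 9072 and 6747 in cKO and 6612, 7517 and 6026 in WT. The groups overlapped only through cKO 3. The log2 fold change was 0.35 (SE 0.19, limma adjusted p = 0.663), and it was 0.45 without both arrays numbered 3, when the groups were apart. Mirg read 242, 239 and 218 in cKO and 246, 177 and 178 in WT, groups that overlapped, at 0.21 (SE 0.16).

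All 11 probe sets of Meg3 had a log2 fold change above zero, between 0.07 and 0.73. On 1 of them, 1436057_at, the groups were apart, with 271, 295 and 267 in cKO and 183, 128 and 178 in WT. This was a log2 fold change of 0.73 (SE 0.18) that did not pass over all probe sets (limma adjusted p = 0.290). All 4 probe sets of Rian were above zero as well, between 0.20 and 0.37, with the groups overlapping on each. As for Ndn, probe sets of 1 gene share their RNA and can share sequence.

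**Figure D3:**
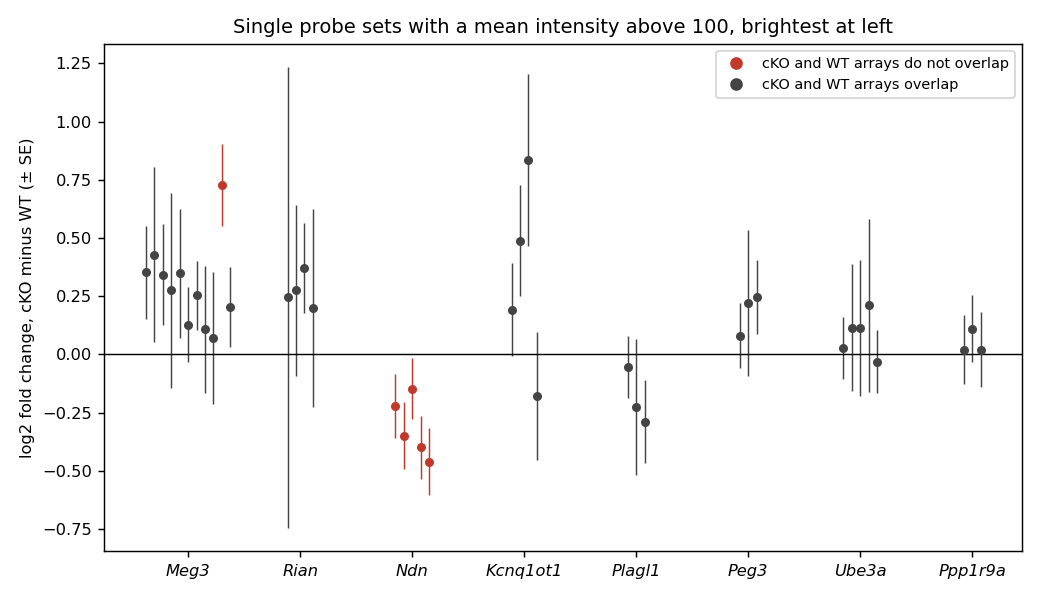
Log2 fold change, cKO minus WT, with SE, for every probe set with a mean intensity above 100 of 8 imprinted genes, brightest at the left within each gene. All 5 probe sets of Ndn lie below zero with no overlap between groups, all 11 of Meg3 lie above zero with 1 free of overlap, and the 3 of Ppp1r9a lie between 0.02 and 0.11.

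On the brightest probe set of Rian the arrays numbered 3 lay apart in both genotypes. This probe set read 2071, 2036 and 313 in cKO and 2106, 1396 and 267 in WT. On the brightest probe sets of Meg3 and Mirg, the arrays numbered 3 did not both lie outside the range of the other arrays. On the next brightest of Meg3, 1452183_a_at, both lay below the others, at 2597 in cKO 3 and 2141 in WT 3 against 3421 or more. Other probe sets of Meg3, given below, had both outside on either side. For Rian the array numbered 3 deviated from the mean of the other arrays of its group by -2.65 on the log2 scale in cKO and -2.62 in WT. The genotype difference of 0.24 had an SE of 1.00 (limma adjusted p = 0.983). Without both arrays it was 0.26. The size and sign of this deviation differed between probe sets of Rian. The second brightest, 1427580_a_at, was lower on the arrays numbered 3 by a smaller amount, at 999, 1116 and 577 in cKO and 1043, 744 and 462 in WT. On 1440001_at the arrays numbered 3 lay between the others of their group, at 405, 301 and 383 in cKO and 316, 225 and 292 in WT. The dimmest, 1428055_at, was highest on the arrays numbered 3, at 156, 96.9 and 211 in cKO and 136, 66.7 and 214 in WT.

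Meg3 divided in the same way. Its probe set 1426758_s_at read 2417, 2093 and 1005 in cKO and 1721, 1857 and 894 in WT, lowest on the arrays numbered 3, while 1428764_at read 438, 324 and 536 in cKO and 380, 304 and 565 in WT, highest on them. The deviation thus had opposite signs between probe sets of 1 gene. Dlk1 was read at 67.2, 41.0 and 195 in cKO and 73.1, 49.3 and 122 in WT, highest on both arrays numbered 3. Its log2 fold change was 0.11 (SE 0.52).

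Across the imprinted genes, both arrays numbered 3 lay outside the range of the other 4 on the same side in 17 of 40 genes (42.5%), 10 below and 7 above, against 27.8% of all genes. Igf2, the paternally expressed fetal growth factor, was among those above. It read 411, 520 and 945 in cKO and 562, 477 and 713 in WT, and its log2 fold change was 0.03 (SE 0.32), or -0.16 without both arrays. Igf2r, the maternally expressed receptor that clears IGF2, was also above on both by its brightest probe set, by 0.40 in cKO and 0.46 in WT, with a genotype difference of 0.04 (SE 0.20). Its other probe set was below on both, at -0.20 in cKO and -0.36 in WT, as probe sets of Rian and Meg3 also differed in sign. Copg2, a coatomer subunit gene, and Commd1, a gene of copper handling, were below on both, Copg2 by -0.80 in cKO and -0.66 in WT. The erythroid sums given above were high on these same arrays, and their part in these values was not tested.

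**Figure D4:**
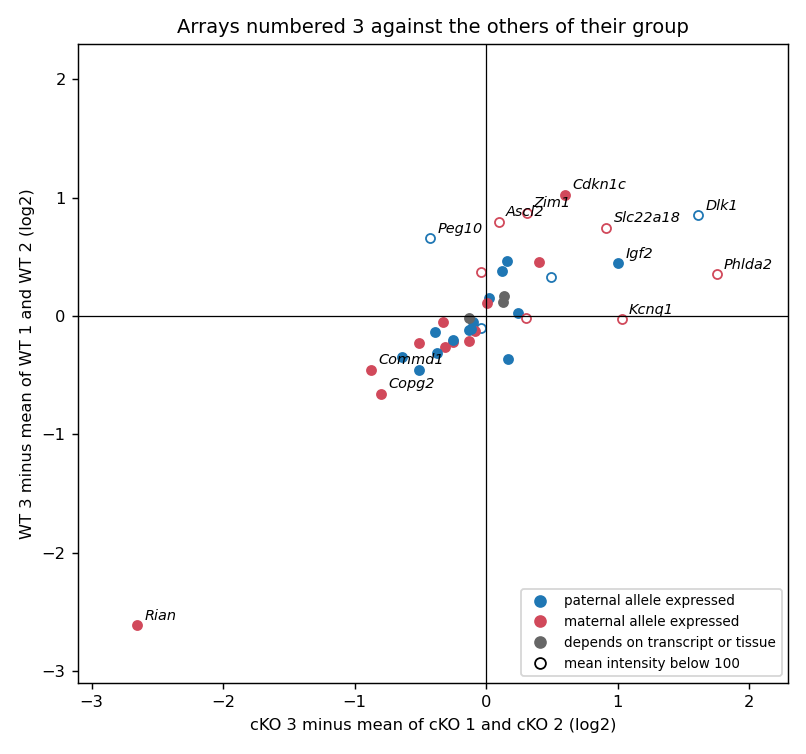
For each of 40 imprinted genes, the log2 value on array cKO 3 minus the mean of cKO 1 and cKO 2 (horizontal axis) and the same for WT (vertical axis), coloured by the parental copy expressed, with open circles for a mean intensity below 100. Rian lies at -2.65 and -2.62, and Dlk1, Igf2, Slc22a18 and Phlda2 lie above zero in both genotypes.

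Several members with high intensity differed little between genotypes. Plagl1, a paternally expressed zinc finger gene that regulates other imprinted genes, read 15831, 16400 and 14909 in cKO and 16269, 17135 and 15507 in WT. Its log2 fold change was -0.05 (SE 0.12), and its 3 probe sets ran from -0.29 to -0.05 with overlapping groups. Nnat, a paternally expressed membrane protein gene of developing neurons, read 12700, 10326 and 12486 in cKO and 10116, 11605 and 14081 in WT, and its log2 fold change was -0.0045 (SE 0.17). Both carry the TGCCGC letters in the start regions printed above, as Nap1l5 does. A relation between these letters and the levels was not tested.

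Gnas, which encodes the alpha subunit of the stimulatory G protein and has both maternal and paternal transcripts, read 12360, 11311 and 12932 in cKO and 11634, 12842 and 13272 in WT. Grb10, an adaptor that restrains insulin and IGF signalling and is paternally expressed in neurons but maternally in most tissues, read 5735, 5614 and 6226 in cKO and 5184, 5663 and 6103 in WT. Inpp5f, a phosphoinositide phosphatase gene with an imprinted variant in brain, read 5893, 5690 and 5296 in cKO and 4861, 5357 and 5032 in WT. The groups overlapped for all 3, and their log2 fold changes were -0.04 (SE 0.12), 0.05 (SE 0.13) and 0.15 (SE 0.12). A p short of the threshold does not show that these levels are equal, and 3 arrays a group limit the precision.

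In the Peg3 cluster, on chromosome 7, the zinc finger gene Peg3 was at 0.08 (SE 0.12), the ubiquitin protease gene Usp29 at -0.25 (SE 0.23) and the dim Zim1 at -0.32 (SE 0.40). In the Peg10 cluster, on chromosome 6, the median of 5 members was 0.05. Sgce, the paternally expressed gene of epsilon-sarcoglycan, read 796, 696 and 694 in cKO and 630.2, 653 and 620.1 in WT, with no overlap and a log2 fold change of 0.19 (SE 0.12, limma adjusted p = 0.731). Ppp1r9a, which encodes neurabin, was at 0.02 (SE 0.13), and Asb4, Calcr and the retrotransposon-derived Peg10 had means below 100. Mest, a paternally expressed hydrolase-like gene, was at 0.02 (SE 0.21), and Copg2 beside it at -0.00069 (SE 0.30). The noncoding RNA Airn, which silences Igf2r on the paternal copy, was at 0.12 (SE 0.25), Blcap at -0.04 (SE 0.16), Commd1 at -0.10 (SE 0.29), Impact, a regulator of translation, at 0.05 (SE 0.14) and Rasgrf1, an exchange factor for Ras, at -0.27 (SE 0.23).

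The members were also grouped by the parental copy assigned to them from textbook knowledge. Some, such as Cd81 and Tssc4, are imprinted mainly in placenta, and the copy expressed in this tissue was not measured. The 18 paternally expressed members had a median log2 fold change of 0.01, with 9 higher and 9 lower in cKO. The 19 maternally expressed members had a median of 0.05, with 13 higher and 6 lower. The mean was below 100 for 7 of these 19 and for 4 of the 18 paternally expressed members. All genes had a median of 0.01, with 9313 higher and 8880 lower. The groups did not overlap in 4 paternally expressed members (Nap1l5, Snrpn and Ndn lower, Sgce higher) and in 2 maternally expressed members (Cdkn1c and Ascl2, both higher), where 7.64% of all genes were lower and 7.90% higher without overlap. A difference between the classes was not tested.

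Genes that keep or read imprints were listed beside the members. Of 38 such factors 34 were measured, and limma called 0, against 0.627% of all genes. An unadjusted p under 0.05 was reached by 1 that was higher, against 5.17% of all genes, and 1 that was lower, against 4.39%. The lower gene was Setdb1 itself. The higher gene was Atf7ip, which encodes the partner that stabilizes ESET. It read 4412, 3492 and 5467 in cKO and 2471, 2702 and 2566 in WT, which did not overlap and differed by 0.76 on the log2 scale (SE 0.18, limma adjusted p = 0.204). Trim28 was at -0.10 (SE 0.17), Zfp57 at -0.11 (SE 0.26), the related Zfp445 at 0.05 (SE 0.13) and the maintenance methyltransferase gene Dnmt1 at -0.17 (SE 0.16). Ctcf, the insulator protein that binds imprinting control regions, read 2920, 2812 and 3305 in cKO and 3416, 3463 and 3838 in WT, at -0.25 (SE 0.13, limma adjusted p = 0.638).

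Of 20 genes of IGF and insulin signalling and of the imprinted gene network, 19 were measured and 1 passed, against 0.627% of all genes. This was Grb14, the relative of the imprinted Grb10, which read 150.5, 142 and 136 in cKO and 468, 438 and 459 in WT. The groups lay far apart, and it fell with a log2 fold change of -1.57 (SE 0.11, limma adjusted p = 0.00460). The call was lost without both arrays numbered 3 (-1.53, adjusted p = 0.139), with the mean of its probe sets (-1.11, adjusted p = 0.124) and, at -1.57, in the fit that took replicate numbers as a block (adjusted p = 0.0669). Igfbp5, a secreted binding protein of IGF, read 1322, 1478 and 1595 in cKO and 799, 804 and 985 in WT without overlap, and its log2 fold change of 0.76 (SE 0.15) did not pass (limma adjusted p = 0.115). The receptor genes Igf1r and Insr were at 0.01 (SE 0.16) and 0.23 (SE 0.13), Cdkn1b, a relative of Cdkn1c, at -0.37 (SE 0.31) and Cdkn1a at -0.17 (SE 0.16). Of 47 further imprinted genes 37 were measured and limma called 0, against 0.627% of all genes. By the unadjusted p 2 were higher, against 5.17% of all genes, and 0 lower, against 4.39%. The 2 were Xlr4c at 0.92 (SE 0.33) and Zim2 at 0.70 (SE 0.25), both with every value below 100.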

How the data were processed

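Each array has 1 deposited intensity per probe set, not log-transformed, made with the Affymetrix Expression Console per the submitters' processing notes, from biotin-labelled cRNA of 250 ng total RNA per the labels' protocols. Its version, and how probes were summarised, were not stated there. The arrays had already been brought to 1 scale, since means trimmed by 2% at each end lay at 497.2 to 497.7.

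Values were analysed as log2(intensity + 16), without further normalization (array medians differed by 0.33). Genotype alone entered the model, fitted with limma 3.58.1 in R 4.3.3 to 18193 genes, each by its brightest single-gene probe set, and to all 45037 probe sets. P-values were two-sided and adjusted by Benjamini-Hochberg over each whole table, with a threshold of 0.05. The annotation gave 1 gene to 34945 probe sets, several to 932 and none to 9160, and the symbols of the 40 measured members matched RefSeq by Entrez identifier. The fit was tested on simulated arrays.

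The design text gives embryos as the unit, and nothing says which embryo each array held, so p-values measure the spread between these arrays. The members, lists and tests were chosen with earlier results of these data known. Values of every array are printed for members with an unadjusted p under 0.05, the 8 brightest members, both named clusters (Igf2-H19 and Dlk1-Meg3) and members added after their values were seen (Sgce and Kcnq1ot1). Other members are given by fold change. Genes outside the members are those of the lists with the smallest p and genes picked by role with their values known. Parental copies and clusters were assigned from textbook knowledge.

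The numbers in the titles were not taken to pair the arrays. Deviations from the group means correlated across genes at 0.07, 0.17 and 0.37 between cKO and WT arrays of the same number, so 1 pair was not over 0.1. Between arrays of other numbers, cKO 1 with WT 2 gave 0.15 and cKO 2 with WT 1 gave 0.10. Between an array numbered 3 and arrays of other numbers the values ran from -0.27 to -0.14. Deviations sum to zero within a group, so these negative values are not separate from the 0.37. The alternatives tried were pseudocounts of 1 and 64, centring on array medians, quantile normalization, dropping dim probe sets, trend and robust eBayes, leaving out _x_at and _s_at probe sets, the mean of a gene's probe sets, a replicate block, the arrays numbered 3 as a block or left out, and each array left out in turn.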

Additional observations from a re-analysis of the deposited data

How the results depend on the processing

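The count of 0 imprinted genes past the threshold became 1, Nap1l5, at a pseudocount of 64, after quantile normalization, with dim probe sets left out and with trend and robust eBayes, and it was 0 in the other 13 settings. Over all 107 probe sets it became 1 in the same settings but for quantile normalization, where it was 0. The median log2 fold change of the 40 genes, 0.0351, was -0.0146 with arrays centred on their medians, a setting that moved the median of all genes to -0.04, and 0.0606 without both arrays numbered 3. In the fits without 1 array it ran from -0.0200 to 0.0525. Of the 40 genes, 17 kept their sign in all settings, among them Nap1l5, Cdkn1c, Meg3, Ndn and Snrpn, and 23 changed it in at least 1, where neither value passed.

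Among the imprint factors the count of 0 became 1 (Setdb1) with dim probe sets left out and 2 (Setdb1 and Atf7ip) with trend and robust eBayes. In the growth list, the count of 1 (Grb14) became 2 with Igfbp5 at a pseudocount of 64, with dim probe sets left out and with trend and robust eBayes. It became 0 with the mean of a gene's probe sets, without both arrays numbered 3 and with the replicate block. With the replicate block the count of imprinted genes was 0, and Nap1l5 had an adjusted p of 0.161. Leaving out 1 array kept both counts, at 0 and 1. The causes of these changes were not tested. Members with a mean intensity below 100, 11 of 40, are limited by background.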

Other observations

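Several imprinted genes are retrogenes that lie within an intron of a host gene, and Nap1l5 lies within Herc3, a ubiquitin ligase gene chosen here after the values of Nap1l5 were seen. The brighter probe set of Herc3 read 622, 924 and 620.1 in cKO and 852, 808 and 538 in WT, groups that overlapped, with a log2 fold change of -0.02 (SE 0.24), beside -1.21 (SE 0.17) for Nap1l5. The other probe set of Herc3 read 154, 119 and 187 in cKO and 119, 116 and 84.5 in WT, with a log2 fold change of 0.46 (SE 0.21) and no overlap, and it did not pass over all probe sets (limma adjusted p = 0.694). The imprinted retrogene Mcts2 and its host H13 were at -0.08 (SE 0.16) and 0.01 (SE 0.22), and Trappc9, the host of Peg13, at 0.03 (SE 0.15).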
